A study of Homo sapiens with 35 samples.

Results

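Glutathione is the main small thiol of animal cells, and it is built from glutamate, cysteine and glycine by glutamate-cysteine ligase and then glutathione synthetase. The transcription factor NRF2, encoded by NFE2L2, switches on many of the genes that make, use and regenerate glutathione and thioredoxin. With enough reducing power in the cell, KEAP1 holds NRF2 and hands it to the CUL3 ubiquitin ligase for destruction; oxidants and electrophiles modify KEAP1, and NRF2 then pairs with a small MAF protein on antioxidant response elements. BACH1 competes for the same elements and represses HMOX1 in particular.

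The genes described here were chosen by name: GCLC, GCLM, GSS, GSR, NQO1, HMOX1, TXNRD1, SRXN1, GPX4 and OSGIN1, 10 of the 60665 genes of the count table, each read in all 35 libraries. All 10 passed the filter on low counts, which left 19275 genes. They cover glutathione synthesis (GCLC and GCLM, the catalytic and modifier subunits of glutamate-cysteine ligase, and GSS, glutathione synthetase), glutathione recycling and use (GSR, glutathione reductase, and GPX4, which reduces lipid peroxides), the thioredoxin and peroxiredoxin branch (TXNRD1, thioredoxin reductase, and SRXN1, sulfiredoxin) and further NRF2 targets (NQO1, a quinone reductase, HMOX1, the inducible haem oxygenase, and OSGIN1, an oxidative stress induced growth inhibitor).

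The cells were HEK293T, a transformed human embryonic kidney line. Every library came from cells transfected with 5 nM of a siPOOL, a mixture of many siRNAs against 1 transcript, and harvested 72 h after depletion began, and total RNA was sequenced after removal of ribosomal RNA. The second set of libraries, numbered 3 and 4, held INTS13 siPOOL cells without glucose for 24 h (n = 2) and with glucose (n = 2), HDGF siPOOL cells without (n = 2) and with glucose (n = 2), ZNF655 siPOOL cells with glucose (n = 2), and control siPOOL cells without (n = 4) and with glucose (n = 4). The third set, also numbered 3 and 4, held ZMYND8 siPOOL cells (n = 2) and control siPOOL cells labelled for ZMYND8 (n = 2), both with glucose. The first set, numbered 1 and 2, held TSPYL2, ZEB1, ZNF608, ZNF609 and ZNF687 siPOOL cells (n = 2 each) and control siPOOL cells (n = 3), all with glucose. The sets were formed here, as no label names a set. ZNF655 was placed in the second set by its replicate numbers alone, which the third set shares. INTS13 is a subunit of Integrator, a complex that cleaves nascent transcripts, and the other targets are transcription-related proteins studied beside it. The replicates are not labelled as separate cultures or transfections. The second-set controls are labelled 3a, 3b, 4a and 4b, so 3a and 3b share a replicate number, as do 4a and 4b. The tests treated them as separate libraries. A p-value here thus reflects variation among libraries that may be technical. Starved ZMYND8 cells were not analysed here.

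Library totals were 16.8 to 50.8 M counts. Each target was lower in its own siPOOL libraries with no overlap with the controls, at 8.36% of control for HDGF and 13.9% for INTS13 up to 56.1% for ZNF608. Of the markers of the line, VIM, CDH2, NEFL and NEFM were detected in every library, while PAX2 (0.317 to 1.86 CPM) and LHX1 (1.11 to 3.14 CPM) were low. Markers of blood (PTPRC), red cells (HBB) and keratinocytes (KRT14) were at 0 in 31, 34 and 33 of the 35 libraries. Those of endothelium (PECAM1, up to 0.146 CPM) and liver (ALB, up to 0.223 CPM) were at 0 in only 9 and 4 libraries. COL1A1, a fibroblast collagen, was at 1.23 to 8.70 CPM. Levels below are counts relative to library size after TMM scaling (CPM), differences are log2 fold changes ± SE, and a gene was called at an edgeR adjusted p under 0.05 over the 19275 genes.

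RefSeq promoter windows of GRCh38.p14, 250 bases before to 50 bases after a start site, were used for 7 of the 10 genes, in 10 windows. They were searched on both strands for the core of the antioxidant response element, TGACNNNGC, which stood in 3 of these windows, those of GCLM and TXNRD1, and in 4663 of all 34943 RefSeq windows of the same length (13.3%). The windows with a match are shown, 5′ to 3′ on the gene's strand, with the matches in capitals. GCTTAGTCA, GCTCCGTCA and GCTTTGTCA are matches read on the opposite strand. GCLM and TXNRD1 fell in starved control cells, and so did GCLC and NQO1, whose windows held no match. The GCLM window is chr1:93909381-93909680 on the minus strand, and the TXNRD1 windows are chr12:104215529-104215828 and chr12:104286782-104287081 on the plus strand.
GCLM: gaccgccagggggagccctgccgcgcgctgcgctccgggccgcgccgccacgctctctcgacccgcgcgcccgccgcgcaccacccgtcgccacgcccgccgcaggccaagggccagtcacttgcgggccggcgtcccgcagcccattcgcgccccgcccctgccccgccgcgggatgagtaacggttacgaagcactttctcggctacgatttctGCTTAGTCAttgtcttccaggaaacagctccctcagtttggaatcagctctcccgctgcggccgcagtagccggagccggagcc
TXNRD1, first window: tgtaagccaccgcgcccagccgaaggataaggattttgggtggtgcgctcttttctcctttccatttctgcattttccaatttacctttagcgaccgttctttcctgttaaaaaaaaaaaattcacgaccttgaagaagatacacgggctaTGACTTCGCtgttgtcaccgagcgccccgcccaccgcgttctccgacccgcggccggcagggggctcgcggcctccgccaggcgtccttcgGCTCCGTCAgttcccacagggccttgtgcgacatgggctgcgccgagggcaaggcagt
TXNRD1, second window: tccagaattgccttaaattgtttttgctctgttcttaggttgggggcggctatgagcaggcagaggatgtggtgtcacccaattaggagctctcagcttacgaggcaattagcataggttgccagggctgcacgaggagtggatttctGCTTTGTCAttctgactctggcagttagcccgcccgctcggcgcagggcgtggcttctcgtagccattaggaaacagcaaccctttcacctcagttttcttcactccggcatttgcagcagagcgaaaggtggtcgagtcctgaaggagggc

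Turned to the strand of the element, the 4 matches read as follows, with 6 bases of context on each side. The GCLM match lay 25 bases before the start site, the TXNRD1 match of the second window 93 bases before it, and the matches of the first TXNRD1 window 90 bases before it and across it.
GCLM: agacaaTGACTAAGCagaaat
TXNRD1, second window: tcagaaTGACAAAGCagaaat
TXNRD1, first window, upstream match: gggctaTGACTTCGCtgttgt
TXNRD1, first window, match at the start site: gggaacTGACGGAGCcgaagg
The windows of GCLC, NQO1, SRXN1, GPX4 and OSGIN1 held no TGACNNNGC. HMOX1 and GSS had no RefSeq promoter entry in the source used and GSR was left out, so these genes were not searched. The AP-1 site TGANTCA, which shares the letters TGA with the element, stood once in the OSGIN1 window and in 7.72% of all windows. A match is a string of letters and says nothing of a factor bound there. Only these windows were searched, so a window without a match does not show that the gene lacks the element.

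The 10 genes covered a wide range of levels. Per kilobase of exon in the unstarved controls of the second set (n = 4), GPX4 was highest at 149 ± 14.2 CPM per kb (SD), before TXNRD1 at 42.4 ± 3.26, GSR at 32.1 ± 0.684, GCLM at 11.2 ± 0.879, HMOX1 at 9.84 ± 1.43, GSS at 9.60 ± 0.309, GCLC at 6.68 ± 0.441 and NQO1 at 2.95 ± 0.0851. SRXN1 (0.0776 to 0.120 CPM per kb) and OSGIN1 (0.0653 to 0.116 CPM per kb) were lowest. GCLM and HMOX1 overlapped between libraries on this scale, as did HMOX1 and GSS, and SRXN1 and OSGIN1. Across all 35 libraries, HMOX1 varied most among the well-counted genes, with its highest level 6.47 times its lowest, before NQO1 (3.17 times), GPX4 (2.69 times) and GCLM (2.53 times), while GCLC varied least (1.42 times). SRXN1 had only 1 to 15 counts and OSGIN1 9 to 35 counts in a library, so counting error is a large part of their spread, and both are described with that limit.

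Glucose starvation of control cells, in which the question was how cells without glucose respond, lowered GCLM, HMOX1, TXNRD1, NQO1 and GCLC and raised GSS. Thus 5 of the 10 genes fell and 1 rose, where 8.05% of all genes tested were called lower and 8.77% higher (16.8% in either direction). The median log2 fold change was -0.31 over the 10 genes and 0.01 over all genes tested. Transcripts in bulk RNA are measured as a share of the total, so less RNA per cell and fewer expressing cells cannot be told apart.

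HMOX1 (ENSG00000100292, hg38 chromosome 22, 35380361 to 35394207, plus strand), which breaks haem into iron, carbon monoxide and biliverdin, was at 9.12, 7.67, 6.28 and 7.19 CPM in starved controls, against 19.4, 25.5, 25.4 and 20.2 CPM in unstarved controls. Every starved library was below every unstarved one, and the log2 fold change was -1.58 ± 0.23 (adjusted p = 2.45e-05). GCLM (ENSG00000023909, chromosome 1, 93885199 to 93909456, minus strand) was at 28.6, 26.9, 26.7 and 26.7 CPM in starved controls, against 56.0, 64.3, 65.3 and 57.2 CPM in unstarved controls. The groups lay far apart and the starved libraries were nearly equal (-1.16 ± 0.11, adjusted p = 8.95e-08). TXNRD1 (ENSG00000198431, chromosome 12, 104215779 to 104350307, plus strand), which keeps thioredoxin reduced, was at 222, 213, 210 and 205 CPM in starved controls, against 257, 299, 305 and 277 CPM in unstarved controls. It fell by 0.42 ± 0.06 on the log2 scale without overlap (adjusted p = 3.33e-05).

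NQO1 (ENSG00000181019, chromosome 16, 69706996 to 69726668, minus strand) was at 6.82, 6.74, 5.50 and 5.69 CPM in starved controls, against 8.48, 8.98, 8.99 and 8.63 CPM in unstarved controls, and fell without overlap (-0.50 ± 0.14, adjusted p = 0.0119). GCLC (ENSG00000001084, chromosome 6, 53497341 to 53616970, minus strand) was at 48.3, 50.3, 52.4 and 49.0 CPM in starved controls, against 52.8, 59.6, 61.5 and 56.6 CPM in unstarved controls. Its difference was small (-0.20 ± 0.06, adjusted p = 0.0252), and only 3 of the 8 fits that left out 1 library kept the call, which was also lost with no filter on low counts (adjusted p = 0.283). The subunits of glutamate-cysteine ligase both fell, the modifier subunit by -1.16 and the catalytic one by -0.20 on the log2 scale.

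GSS (ENSG00000100983, chromosome 20, 34928432 to 34956027, minus strand), the enzyme of the second step of glutathione synthesis, went the other way. It was at 75.4, 75.7, 80.3 and 78.9 CPM in starved controls, against 59.7, 61.6, 57.7 and 57.6 CPM in unstarved controls, and rose without overlap (0.39 ± 0.08, adjusted p = 0.000703). GCLM, HMOX1, TXNRD1, NQO1 and GSS kept their calls in all 8 fits that left out 1 library. Of the genes not called, GSR was at 101 to 107 CPM in starved controls, against 113 to 119 CPM in unstarved controls (-0.15 ± 0.07, adjusted p = 0.131), GPX4 differed by 0.07 ± 0.15 (95% interval -0.24 to 0.39) and SRXN1 by -0.45 ± 0.40. OSGIN1 was at 1.39, 0.593, 0.973 and 0.887 CPM in starved controls, against 0.645, 0.549, 0.521 and 0.363 CPM in unstarved controls (0.86 ± 0.30, adjusted p = 0.0505). The share of counts in ribosomal protein genes, 7.87% to 8.39% in starved and 6.54% to 7.18% in unstarved controls, moved with the same groups, and its part in these differences was not tested.

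**Figure D1:**
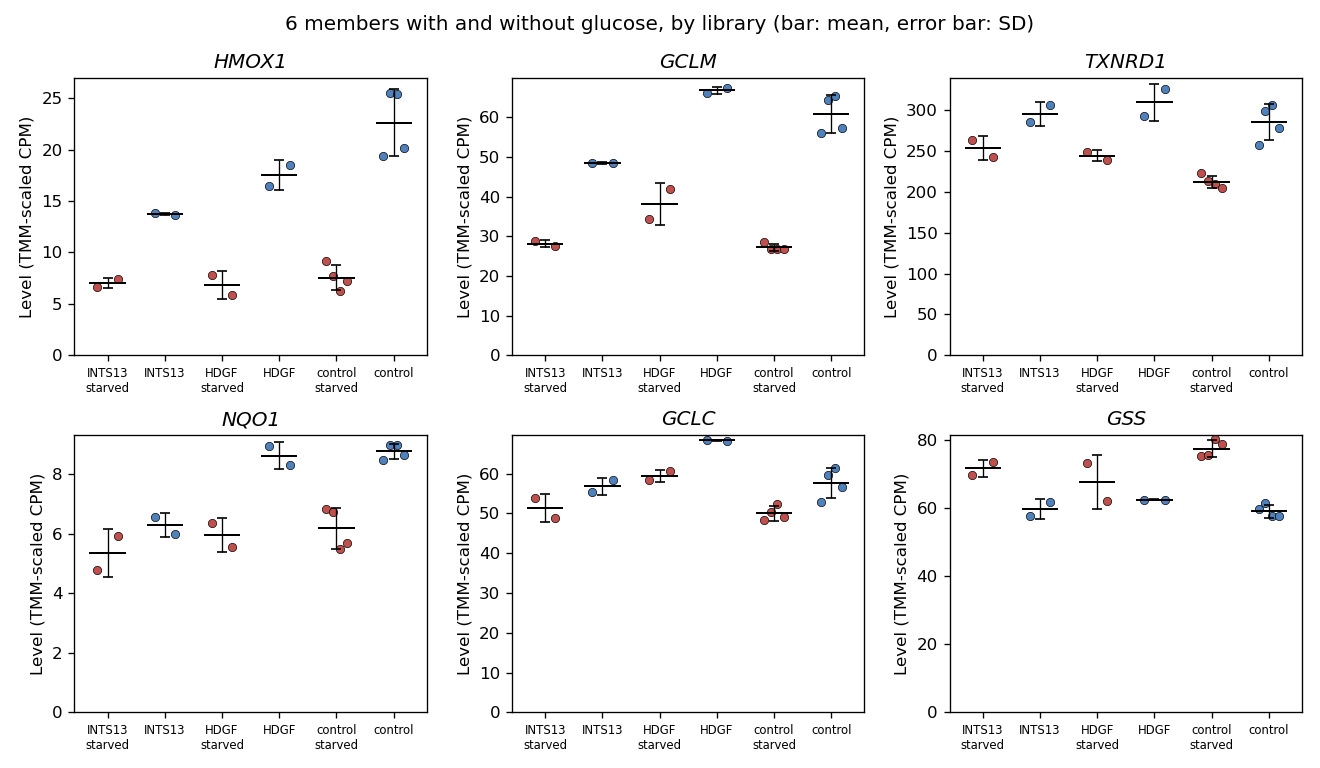
Levels of the 6 genes called in starved control cells, in TMM-scaled CPM on linear axes from 0, for each library of the second set (points, starved red and unstarved blue) with the group mean (bar) and SD (error bar). HMOX1, GCLM, TXNRD1 and NQO1 are lower and GSS higher in all 4 starved control libraries than in any of the 4 unstarved ones, while for GCLC the lowest unstarved library (52.8 CPM) is just above the highest starved one (52.4 CPM).

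The same starvation was applied to cells depleted of INTS13 and of HDGF. After INTS13 depletion GCLM was the 1 gene of the 10 that was called, lower, where 0.467% of all genes tested were called lower and 0.856% higher. It was at 28.7 and 27.5 CPM in starved INTS13-depleted cells, against 48.6 and 48.3 CPM in unstarved INTS13-depleted cells (-0.79 ± 0.15, adjusted p = 0.00896). None of the 4 fits without 1 of these libraries kept that call. HMOX1 was at 6.68 and 7.40 CPM in starved and 13.8 and 13.7 CPM in unstarved INTS13-depleted cells (-0.96 ± 0.33), which did not overlap but did not pass the test (adjusted p = 0.158). With the second-set libraries fitted alone, 4 genes were called, GCLM and HMOX1 (-0.95, adjusted p = 0.000772) lower and GSS and GPX4 higher, where 4.94% of all genes tested were called lower and 7.13% higher.

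After HDGF depletion 3 of the 10 genes fell and none rose, where 1.45% of all genes tested were called lower and 2.09% higher. GCLM was at 34.4 and 41.9 CPM in starved HDGF-depleted cells, against 66.1 and 67.4 CPM in unstarved HDGF-depleted cells (-0.81 ± 0.15, adjusted p = 0.00329). HMOX1 was at 7.81 and 5.90 CPM in starved and 16.5 and 18.5 CPM in unstarved HDGF-depleted cells (-1.34 ± 0.33, adjusted p = 0.0206). TXNRD1 was at 249 and 239 CPM in starved and 293 and 325 CPM in unstarved HDGF-depleted cells (-0.34 ± 0.09, adjusted p = 0.0295). None of these groups overlapped. The GCLM call was lost without HDGF starved library 3, and no fit without 1 library kept the HMOX1 or TXNRD1 call. With no filter on low counts the TXNRD1 call was lost as well (adjusted p = 0.302).

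The difference between these starvation responses was tested itself. No gene of the 10 was called for INTS13-depleted minus control cells, where 0.0156% of all genes tested were called, nor for HDGF-depleted minus control cells, where 0 genes of the 19275 were called. At an unadjusted p under 0.05 these contrasts held 1103 and 909 genes. The starvation response of GCLM was 0.37 log2 units weaker in INTS13-depleted cells (95% interval -0.01 to 0.75) and 0.35 weaker in HDGF-depleted cells (-0.04 to 0.73). For HMOX1 these differences were 0.62 (-0.20 to 1.44) and 0.24 (-0.57 to 1.06), and for OSGIN1 -1.04 (-2.03 to -0.05) and -0.65 (-1.63 to 0.33). At an unadjusted p under 0.05 stood OSGIN1 for INTS13 and GSS for HDGF, 1 of the 10 genes each, and DESeq2 called 0 in both. The intervals are wide, and a difference of the size of the INTS13 estimates could not be told from 0 after adjustment. In starved cells, INTS13 depletion against control called 0 of the 10 genes (3.86% of all genes tested) and HDGF depletion 0 (0.659%). At an unadjusted p under 0.05 there were 1 and 3 of the 10, beside 3061 and 2126 of the 19275 genes tested. DESeq2 called 1 of the 10 in each. The nearest to a call were TXNRD1 in starved INTS13-depleted cells (0.25 ± 0.08, adjusted p = 0.0610) and GCLM in starved HDGF-depleted cells (0.48 ± 0.13, adjusted p = 0.0852). With second-set libraries alone the adjusted p of GCLM was 0.000804 and that of TXNRD1 was 0.00826.

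**Figure D2:**
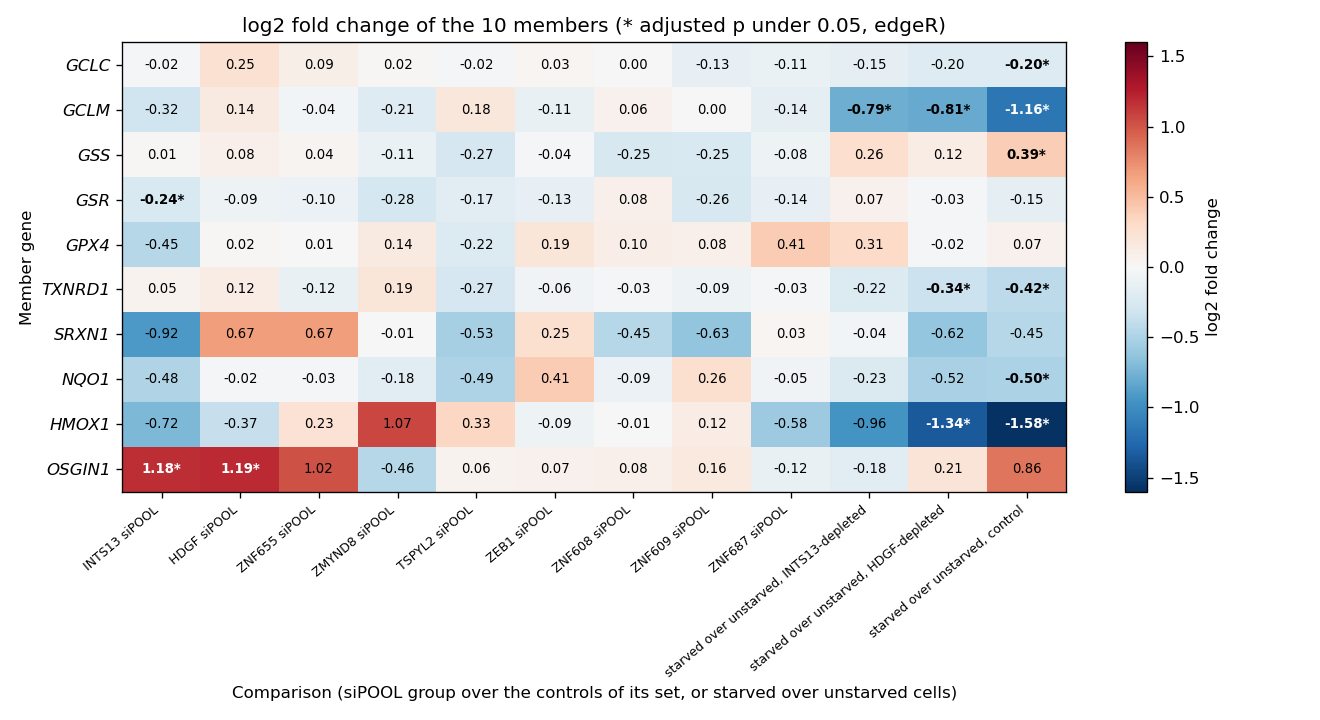
Log2 fold changes of the 10 genes (rows, grouped from glutathione synthesis to other NRF2 targets) in the 9 depletions and the 3 starvation comparisons (columns), with the colour scale in log2 units and an asterisk at an edgeR adjusted p under 0.05. Starved control cells hold 6 asterisks, with GCLM (-1.16) and HMOX1 (-1.58) in deep blue and GSS (0.39) in red; the others lie in INTS13 depletion (2), HDGF depletion (1) and the starvation of INTS13-depleted (1) and HDGF-depleted cells (3).

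Depletion of INTS13 raised OSGIN1 and lowered GSR among the 10 genes, where 6.53% of all genes tested were called higher and 6.23% lower (12.8% in either direction). The median log2 fold change of the 10 genes was -0.28, against 0.01 for all genes tested. OSGIN1 (ENSG00000140961, chromosome 16, 83931311 to 83966332, plus strand) was at 1.08 and 1.31 CPM in INTS13-depleted cells, against 0.645, 0.549, 0.521 and 0.363 CPM in controls. The groups did not overlap (1.18 ± 0.34, adjusted p = 0.0219), and the call was lost without either INTS13 library or without control 4b. GSR was at 99.9 and 95.5 CPM in INTS13-depleted cells, against 119, 116, 114 and 113 CPM in controls (-0.24 ± 0.08, adjusted p = 0.0478), and neither a fit without 1 library nor that with no filter on low counts (adjusted p = 0.333) kept the call.

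For INTS13 depletion the count of called genes moved between fits, while the share of all genes called moved too. In the unblocked fit of 35 libraries HMOX1 (-0.72 ± 0.27, adjusted p = 0.0865), NQO1 (-0.48 ± 0.17, adjusted p = 0.0634), GCLM (-0.32 ± 0.13, adjusted p = 0.110) and GPX4 (-0.45 ± 0.19, adjusted p = 0.128) did not pass. With second-set libraries alone the log2 fold changes were nearly the same and all 4 were called lower, so that 5 of the 10 genes were lower and 1 higher, where 15.8% of all genes tested were called lower and 13.4% higher. HMOX1 was at 13.8 and 13.7 CPM in INTS13-depleted cells, against 19.4 to 25.5 CPM in controls. GPX4 was at 229 and 212 CPM in INTS13-depleted cells, against 272 to 339 CPM in controls, and GCLM was at 48.6 and 48.3 CPM in INTS13-depleted cells, against 56.0 to 65.3 CPM in controls. Neither overlapped, and 6 genes in all were lower without overlap, of which only GSR was called in the fit of 35 libraries. SRXN1 is among the 6, at only 3 and 4 counts in the INTS13 libraries. How many of all genes were lower without overlap was not counted, so the number 6 has no background to be read against. In that fit 6 of the 10 genes, OSGIN1 among them, had an unadjusted p under 0.05, beside 4898 of the 19275 genes tested. GCLC, GSS and TXNRD1 differed by -0.02, 0.01 and 0.05.

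HDGF depletion raised OSGIN1 and called no other gene of the 10, where 1.89% of all genes tested were called higher and 2.60% lower. OSGIN1 was at 0.963 and 1.44 CPM in HDGF-depleted cells, against 0.363 to 0.645 CPM in controls (1.19 ± 0.35, adjusted p = 0.0450), and the call was kept in 1 of 6 fits without 1 library, that without control 3a. GCLC was at 68.5 and 68.2 CPM in HDGF-depleted cells, against 52.8, 59.6, 61.5 and 56.6 CPM in controls (0.25 ± 0.08, adjusted p = 0.0619, and 0.00838 with second-set libraries alone). ZNF655 depletion called 0 of the 10 genes (11.5% of all genes tested), and 0 by DESeq2. It had 1 of the 10 at an unadjusted p under 0.05, beside 4623 of the 19275 genes tested. Its OSGIN1 level was 1.23 and 0.911 CPM in ZNF655-depleted cells, against the same controls (1.02 ± 0.35, adjusted p = 0.0547). The labels name no control for ZNF655, and the second-set controls were used. These comparisons share their 4 control libraries. Set against each other, INTS13 minus HDGF, INTS13 minus ZNF655 and HDGF minus ZNF655 depletion called 0 of the 10 genes each, where 8.23%, 6.80% and 6.28% of all genes tested were called. At an unadjusted p under 0.05 there were 5, 4 and 1 of the 10, beside 3984, 3669 and 3548 of the 19275 genes tested. DESeq2 called 2, 1 and 1 of the 10. Fitted on the second set only, 4, 4 and 2 of the 10 genes were called, where 22.4%, 21.1% and 19.9% of all genes tested were called. For INTS13 minus HDGF depletion the 95% intervals lay below 0 for GCLM (-0.46, -0.77 to -0.15) and GCLC (-0.27, -0.45 to -0.08). They also lay below 0 for NQO1 (-0.45, -0.85 to -0.06), GPX4 (-0.47, -0.92 to -0.03) and SRXN1 (-1.59, -2.71 to -0.48). For INTS13 minus ZNF655 depletion they lay below 0 for HMOX1 (-0.95, -1.58 to -0.32), NQO1, SRXN1 and GPX4. For HDGF minus ZNF655 depletion the interval lay above 0 for TXNRD1 (0.24, 0.06 to 0.42). SRXN1 had only 3 and 4 counts in INTS13-depleted, 14 and 6 in HDGF-depleted and 10 and 12 in ZNF655-depleted libraries. These intervals are not adjusted for the number of genes tested. The OSGIN1 intervals were -0.77 to 0.73, -0.60 to 0.90 and -0.59 to 0.93 log2 units in these 3 contrasts.

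OSGIN1 lies in part within MLYCD, a malonyl-CoA decarboxylase gene on the same strand (chromosome 16, 83899115 to 83951445), and had a median of 22 counts a library, against 483 for MLYCD, so some OSGIN1 reads may belong to its neighbour. MLYCD was looked at after the OSGIN1 values were seen. It was not called after INTS13 (0.07 ± 0.08, adjusted p = 0.615), HDGF (0.12 ± 0.08, adjusted p = 0.484) or ZNF655 depletion (0.16 ± 0.08, adjusted p = 0.202). It rose in starved control cells (0.33 ± 0.06, adjusted p = 0.000670). The OSGIN1 level was 6.60% of that of MLYCD after INTS13 depletion, 6.43% after HDGF depletion and 5.58% after ZNF655 depletion, against 3.03% in unstarved second-set controls. The other control groups were at 3.52% (first set), 4.33% (labelled for ZMYND8) and 4.47% (starved second set). Whether reads were shared was not tested.

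The regulators of the pathway were read beside the members. NFE2L2 was not called in any of the 19 comparisons. It was at 42.8 and 45.4 CPM in INTS13-depleted, 43.7 and 42.8 CPM in HDGF-depleted and 42.7 and 44.8 CPM in ZNF655-depleted cells, against 40.0, 44.0, 41.0 and 43.6 CPM in controls. Starved controls had 40.4, 38.2, 40.8 and 36.8 CPM. BACH1 was not called in any comparison of this fit either, though INTS13 minus ZNF655 (0.35, adjusted p = 0.00174) and HDGF minus ZNF655 depletion (0.26, adjusted p = 0.0165) were called for it with second-set libraries alone.

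KEAP1, the inhibitor of NRF2, moved in opposite directions in the INTS13 and HDGF depletions. It was at 119 and 117 CPM in INTS13-depleted cells, 71.0 and 67.4 CPM in HDGF-depleted cells and 86.9 and 89.4 CPM in ZNF655-depleted cells, against 94.3, 89.4, 88.7 and 86.2 CPM in controls. It rose after INTS13 depletion (0.40 ± 0.07, adjusted p = 0.000536, kept in all 6 fits without 1 library) and fell after HDGF depletion (-0.37 ± 0.08, adjusted p = 0.00298, lost without HDGF library 4). The direct contrast, INTS13 minus HDGF depletion, was 0.77 ± 0.09 (adjusted p = 1.47e-06), and INTS13 minus ZNF655 depletion was 0.42 ± 0.09 (adjusted p = 0.00267). In starved cells KEAP1 was at 101 and 100.3 CPM after INTS13 depletion, against 79.6 to 84.9 CPM in starved controls (0.29 ± 0.07, adjusted p = 0.0215), and 2 of 6 fits without 1 library kept that call. With no filter on low counts the KEAP1 calls after HDGF depletion (adjusted p = 0.0890), for INTS13 minus ZNF655 depletion (0.0790) and after INTS13 depletion in starved cells (0.286) were lost. MAFK, a small MAF partner of NRF2, was at 15.1 and 16.6 CPM in INTS13-depleted cells, against 24.6 to 32.9 CPM in controls (-0.89 ± 0.14, adjusted p = 5.72e-05). SQSTM1, an autophagy adaptor that binds KEAP1, was at 165 and 180 CPM in INTS13-depleted cells, against 250 to 282 CPM in controls (-0.61 ± 0.10, adjusted p = 0.000229).

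**Figure D3:**
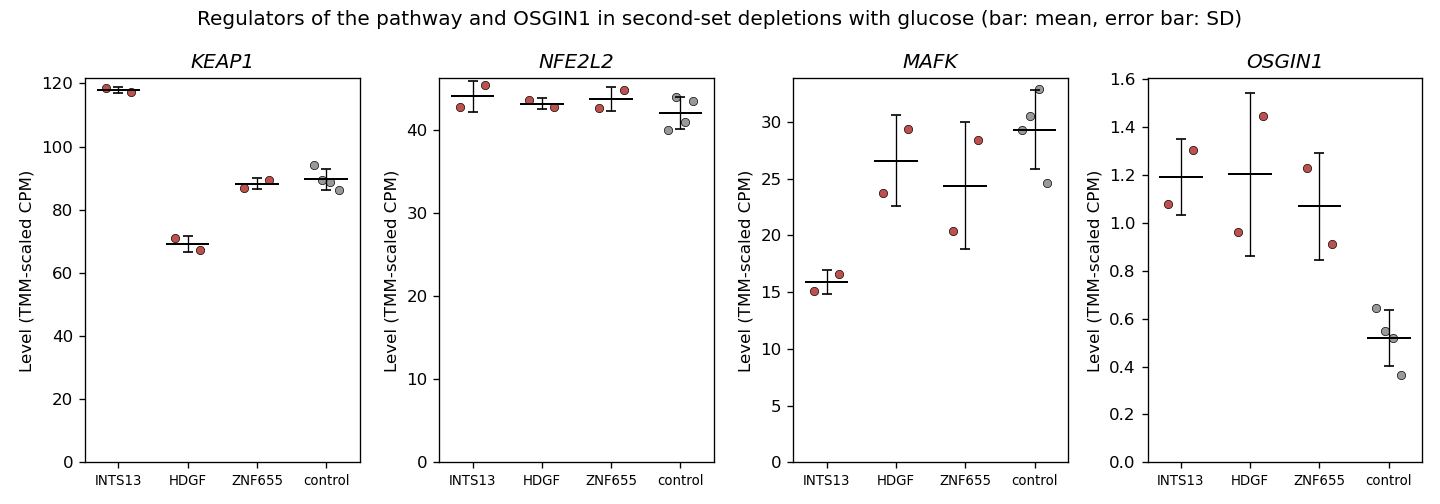
Levels of KEAP1, NFE2L2, MAFK and OSGIN1 in unstarved second-set libraries, in TMM-scaled CPM on linear axes from 0 (points, siPOOL groups red and controls grey, with mean as bar and SD as error bar). KEAP1 is at 117 to 119 CPM in INTS13-depleted cells and at 67.4 to 71.0 CPM in HDGF-depleted cells, on either side of the controls, while NFE2L2 is level across the groups.

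A wider list of the pathway held 89 further genes, of which 81 were tested. After INTS13 depletion 2 rose and 8 fell, which is 12.3% of the tested list, beside 12.8% of all genes tested. The genes that rose were KEAP1 and GSTM4, a glutathione transferase (0.79 ± 0.14), and those that fell included MAFK, SQSTM1, the ferritin light chain gene FTL (-0.46 ± 0.12, adjusted p = 0.00921) and the peroxiredoxin gene PRDX1 (-0.45 ± 0.13, adjusted p = 0.0194). The PRDX1 call was lost without either INTS13 library, and that of FTL without INTS13 library 3. After HDGF depletion 0 rose and 6 fell (7.41% of the list, beside 4.49% of all genes tested), with LANCL1, a glutathione-binding protein gene, at -0.94 ± 0.08 (adjusted p = 5.28e-08) and the aldose reductase gene AKR1B1 at -0.56 ± 0.12, a call lost without either HDGF library. After ZNF655 depletion 4 rose and 9 fell (16.0% of the list, beside 11.5% of all genes tested). Those that rose included GSTM4 (0.96 ± 0.14), and those that fell included the iron exporter gene SLC40A1 (-0.73 ± 0.21) and IDH1 (-0.46 ± 0.09), an NADPH-producing enzyme gene. The SLC40A1 call was lost without either ZNF655 library, and that of IDH1 without ZNF655 library 4. Set against the controls labelled for ZMYND8 instead, the GSTM4 (adjusted p = 0.0549) and SLC40A1 (adjusted p = 0.107) calls after ZNF655 depletion were lost.

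Starvation of control cells raised 9 and lowered 12 of the 81 wider genes, which is 25.9%, beside 16.8% of all genes tested. Of the 9 tested genes for cystine uptake and other glutathione metabolism, SLC7A11 and CHAC1 rose and 7 were not called. SLC7A11, the cystine and glutamate exchanger, was at 155, 166, 132 and 147 CPM in starved controls, against 92.7, 107, 104 and 81.8 CPM in unstarved controls (0.64 ± 0.21, adjusted p = 0.0328), and 2 of 8 fits without 1 library kept the call. CHAC1, which degrades glutathione, was at 18.3, 20.5, 16.5 and 21.6 CPM in starved controls, against 6.01, 6.67, 8.29 and 6.90 CPM in unstarved controls (1.47 ± 0.35, adjusted p = 0.00410). The genes that fell included glutaredoxin GLRX (-0.82 ± 0.19), the carbonyl reductase gene CBR3 (-0.77 ± 0.16) and the malic enzyme gene ME1 (-0.54 ± 0.10). MAFK (-0.49 ± 0.11) and SQSTM1 (-0.36 ± 0.08) fell too. The starved INTS13-depleted cells had 0 higher and 1 lower (1.23% of the list, beside 1.32% of all genes tested), and the starved HDGF-depleted cells 3 higher and 2 lower (6.17%, beside 3.54%).

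ZMYND8 depletion called 0 of the 10 genes, where 0.747% of all genes tested were called, and 2 by DESeq2. It had 3 of the 10 at an unadjusted p under 0.05, beside 1855 of the 19275 genes tested. The largest difference was in HMOX1. HMOX1 was at 34.6 and 38.2 CPM in ZMYND8-depleted cells, against 17.1 and 17.5 CPM in the controls labelled for ZMYND8. The 35-library fit gave 1.07 ± 0.31 (adjusted p = 0.108) for these 4 libraries without overlap. With the 4 third-set libraries alone, where 8.06% of all genes tested were called, the value was 1.05 ± 0.09 (adjusted p = 2.84e-08), with no filter on low counts the adjusted p was 8.00e-07, and with DESeq2 it was 0.0406. GSR was at 97.9 and 97.9 CPM in ZMYND8-depleted cells, against 125 and 113 CPM in controls (-0.28 ± 0.09, adjusted p = 0.188, and 0.00543 with third-set libraries alone). SLC7A11 fell, at 54.6 and 60.2 CPM in ZMYND8-depleted cells against 126 and 149 CPM in controls (-1.26 ± 0.30, adjusted p = 0.0357), and no fit without 1 of the 4 libraries kept that call.

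**Figure D4:**
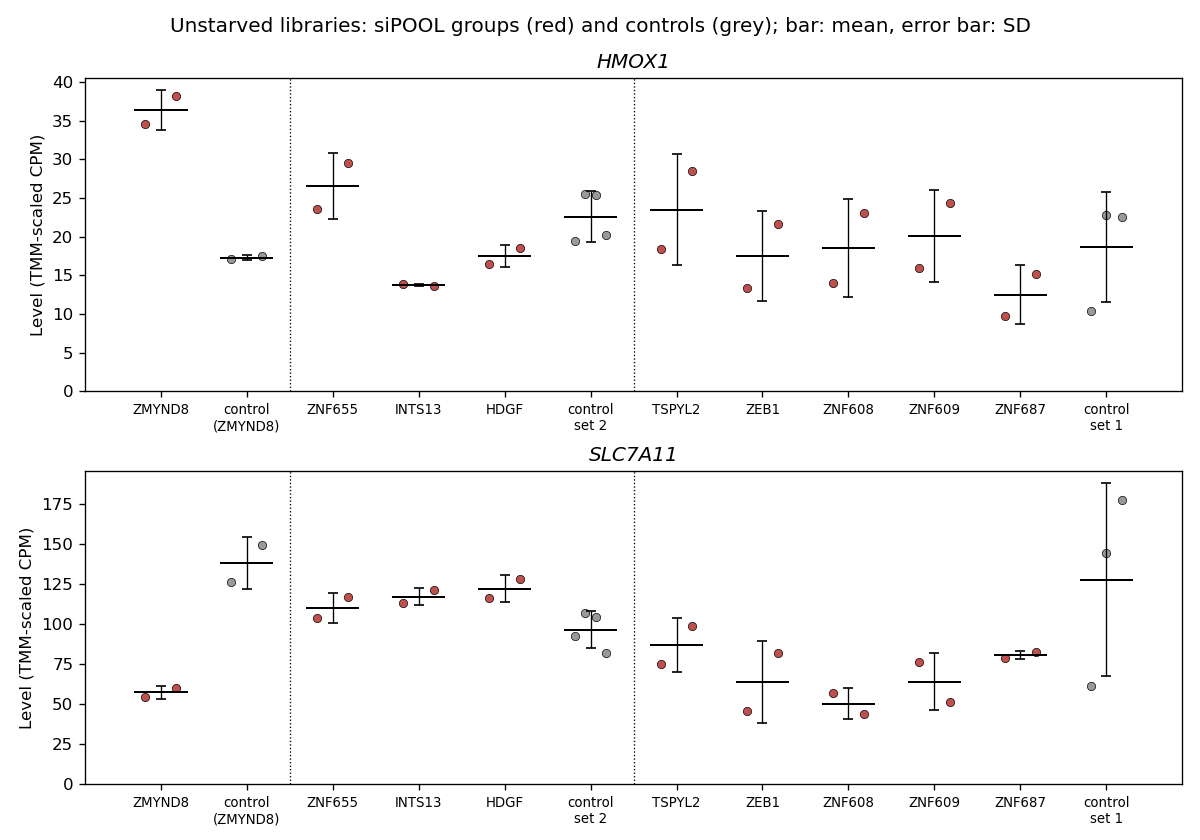
Levels of HMOX1 (top) and SLC7A11 (bottom) in all unstarved libraries, in TMM-scaled CPM on linear axes from 0 (points, siPOOL groups red and controls grey, with mean as bar and SD as error bar; dotted lines separate the third, second and first set). In ZMYND8-depleted cells HMOX1 is at 34.6 and 38.2 CPM and SLC7A11 at 54.6 and 60.2 CPM, each apart from its controls, and the first-set control libraries are spread widely in both panels.

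In the first set no gene of the 10 was called after depletion of TSPYL2 (2.22% of all genes tested), ZEB1 (3.77%), ZNF608 (2.76%), ZNF609 (0.571%) or ZNF687 (0.254%). At an unadjusted p under 0.05 there were 3, 1, 1, 2 and 2 of the 10, in that order. Of the 19275 genes tested, 3238, 4255, 2785, 1891 and 1751 passed that threshold. DESeq2 called 1, 0, 0, 1 and 0 of the 10, and where it called any, its share of all genes is given below. The libraries numbered 1 stood apart from those numbered 2 in this set. Ribosomal protein genes took 10.5% to 16.8% of counts in the 6 libraries numbered 1, by the numbers of the sample descriptions, and 7.51% to 10.2% in the 7 numbered 2. HMOX1 was higher in number 2 than in number 1 in 6 of 6 groups (median log2 difference 0.66), with control libraries at 10.4 CPM for number 1 and 22.9 and 22.6 CPM for number 2. GPX4 was lower in number 2 in 6 of 6 groups (median -0.53), and GCLM was higher in 5 of 6 (median 0.33). The spread of these genes in this set enters the test of every comparison through the shared fit.

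**Figure D5:**
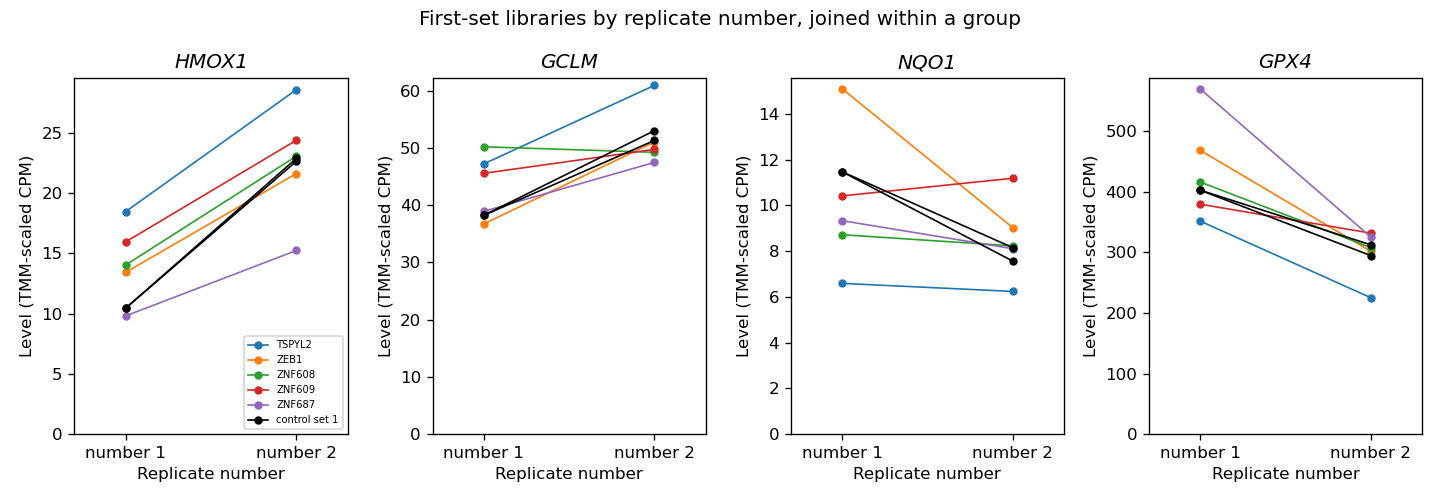
Levels of HMOX1, GCLM, NQO1 and GPX4 in the first-set libraries, in TMM-scaled CPM on linear axes from 0, with the library numbered 1 joined to that numbered 2 of the same siPOOL group (the control has 2 libraries numbered 2). HMOX1 lines climb and GPX4 lines descend toward number 2 in all 6 groups.

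With the replicate number as a block, TSPYL2 depletion called 5 of the 10 genes, where 18.3% of all genes tested were called. HMOX1 was higher (0.49 ± 0.14, adjusted p = 0.0135), and NQO1 (-0.53 ± 0.14), GPX4 (-0.33 ± 0.10), GSS (-0.29 ± 0.08) and TXNRD1 (-0.27 ± 0.08) were lower. TXNRD1 was at 218 and 239 CPM in TSPYL2-depleted cells, against 292, 272 and 265 CPM in controls, and NQO1 was at 6.59 and 6.24 CPM in TSPYL2-depleted cells, against 11.5, 7.57 and 8.16 CPM in controls. HMOX1 was at 18.5 and 28.6 CPM in TSPYL2-depleted cells, against 10.4, 22.9 and 22.6 CPM in controls, so the groups overlapped unless compared within a number. The same block called GSS lower after ZNF608 depletion (-0.27 ± 0.08, adjusted p = 0.0371; 8.65% of all genes tested were called). A blocked fit of only the first set called 0 of the 10 genes in any of the 5 depletions, where the shares of all genes called were 0.0363% (ZNF687), 0.197% (ZNF609), 0.254% (TSPYL2), 1.69% (ZEB1) and 1.71% (ZNF608). Without the libraries numbered 1, a choice made after seeing the data that leaves 1 library per depletion and assumes it to vary like the other groups, GPX4 (-0.41, adjusted p = 0.0118) and GSS (-0.28, adjusted p = 0.0191) were lower after TSPYL2 depletion (15.9% of all genes tested were called), and GSR was lower (-0.21, adjusted p = 0.0367) and NQO1 higher (0.52, adjusted p = 0.00956) after ZNF609 depletion (14.7%).

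Of the wider list, SLC7A11 was lower after ZEB1 depletion (-0.999 ± 0.27, adjusted p = 0.0380) and ZNF608 depletion (-1.34 ± 0.28, adjusted p = 0.00570), and CHAC1 was lower after ZNF608 depletion (-2.42 ± 0.47, adjusted p = 0.00358). SLC7A11 was at 45.8 and 81.8 CPM in ZEB1-depleted and 57.1 and 43.7 CPM in ZNF608-depleted cells, against 61.2, 144 and 178 CPM in controls, where the lowest control was the library numbered 1. The ZEB1 call was kept in 2 of 5 fits without 1 library, with log2 fold changes of -1.48 to -0.64 and adjusted p up to 0.682. In the blocked fit of only the first set the adjusted p of SLC7A11 was 0.147 for ZEB1 and 0.0865 for ZNF608 depletion, and that of CHAC1 was 0.0750. Both ZNF608 calls were lost without ZNF608 library 2.

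Over the 35 libraries, after the mean of the set's controls was subtracted from the log2 CPM, GCLM varied most alike with HMOX1 among the 10 genes (Pearson r 0.83), and least alike with GSS (-0.85). GCLM and TXNRD1 had r 0.63, as had GCLC and TXNRD1, and HMOX1 and GSS had -0.79. The libraries of a set share controls and differ in ribosomal protein share, and 8 of them were starved, so these values are descriptions. Among all 11515 genes at a mean log2 CPM of at least 2, those most like HMOX1 were HSPA5, an endoplasmic reticulum chaperone (0.91), and BAG3, a co-chaperone (0.91). GCLM was most like PSMD11, a proteasome subunit (0.89), and the helicase gene DDX46 (0.88), and NQO1 was most like PSMD7 (0.90), another proteasome subunit, and ANXA2 (0.89). GSS was most like ERP29, a reticulum protein (0.91), and LETMD1 (0.90), and GPX4 was most like NDUFS8, a respiratory complex I subunit (0.89), and NME3 (0.88). For TXNRD1 these were ELL2 (0.85) and GNPDA2 (0.84), for GCLC PPP2R5A (0.81) and UGCG (0.80), for GSR NSF (0.75) and FUBP3 (0.73), for OSGIN1 PGPEP1 (0.78) and PNPLA6 (0.78), and for SRXN1, with its few counts, PIMREG (0.62) and KCTD3 (0.60).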

How the data were processed

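The authors deposited raw counts per gene of total RNA for 35 libraries in 1 table. Reads were processed with FastQC, cutadapt and STAR on hg38, per the submitters' processing notes, which give no versions; what counted the reads, with which annotation and whether by strand, is not given in the sources used here. Per the labels' protocols the libraries were stranded, so reads of a gene and an overlapping antisense gene can be told apart only if strand was used in counting; the antisense genes overlapping the members had a median of at most 3 counts. All 37 mitochondrial genes were at 0.

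Genes were filtered with filterByExpr by group (19275 of 60665 kept), scaled by TMM and fitted with edgeR 4.0.16 (R 4.3.3), quasi-likelihood, as 15 group means over 35 libraries with no block (20 residual degrees of freedom, median prior 5.87, median biological coefficient of variation 0.123). Each comparison is a contrast, tested two-sided with Benjamini-Hochberg adjustment over all genes and called under 0.05. All differences of single genes carry edgeR adjusted p-values unless DESeq2 (1.42) is named. Per-kilobase levels used the exon length of the table, and log2 CPM for correlations a prior count of 2. Intervals are 95% and from the fit. The scripts were tested on simulated data. Alternatives were DESeq2's size factors and Wald test, no filter, libraries of the same set alone, a replicate block, and leaving out each library; leaving out the first-set libraries numbered 1 was added after seeing the data.

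Replicate numbers paired the first set: in 15 of 15 pairs of groups, number 2 minus number 1 correlated over 0.1 (median r 0.742 over 11515 genes), so blocked values stand beside results they change. Titles and descriptions number the first-set controls differently, and the descriptions were used for this. None of the 27 replicate pairs compared was a duplicate (chi-square per degree of freedom 3.10 to 233). Gene positions are those of the count table (hg38), and promoters are from RefSeq (GRCh38.p14).

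The members and the lists were chosen with earlier results of these data known. Named were all 10 members; of the wider list NFE2L2, KEAP1, BACH1 and SLC7A11 and, per comparison, up to 4 called genes a direction with the largest change and a mean log2 CPM of 2 or more; and the 2 genes most correlated with each member. Some genes this rule selected are only counted, and outside that rule MLYCD, some values of the lipid peroxidation genes and those of MAFK and SQSTM1 in starved controls were chosen after they were seen.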

Additional observations from a re-analysis of the deposited data

Results flagged for a closer look

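In a group of 4 libraries, starved control 3a had 28.6 CPM of GCLM, and the nearest of the other starved controls had 26.9 CPM. The gap is 0.890 of the group's range, above Dixon's 95% critical value for 4 values. Such a gap was looked for in 20 groups, the 10 genes in starved and in unstarved controls, and chance flags about 1 group in 20. Without starved control 3a the starvation difference of GCLM was still called, as in all 8 fits without 1 library (log2 fold change -1.19 to -1.12).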

How the results depend on the processing

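No called direction reversed under the alternatives run among the 10 genes, the wider-list genes named by rule and the called lipid peroxidation genes. Other called genes were not checked for reversal. Starvation of control cells kept 6 called members, or within 1.5 times that, throughout. Elsewhere the number called of the 10 genes moved. The share of all genes called under the same setting stands in parentheses. With the replicate block it was 6 for INTS13 depletion (22.4%; 2 and 12.8% in the main analysis), 5 for TSPYL2 (18.3%), 2 for ZMYND8 (2.89%), 1 for ZNF608 (8.65%) and 1 for ZNF655 (20.9%; 0 each in the main analysis), 2 for HDGF (9.27%; 1), 2 for starvation of INTS13-depleted cells (5.58%; 1), 1 for INTS13 (9.42%) and 1 for HDGF depletion in starved cells (2.81%), and 3, 2 and 1 for INTS13 minus HDGF (15.9%), INTS13 minus ZNF655 (14.1%) and HDGF minus ZNF655 (12.7%; 0 each). With libraries of the same set alone it was 6 for INTS13 (29.2%), 2 for HDGF (15.4%), 1 for ZNF655 (28.6%), 2 for ZMYND8 (8.06%), 4 for starvation of INTS13-depleted cells (12.1%), 1 for INTS13 (15.7%) and 2 for HDGF in starved cells (7.5%), and 4, 4 and 2 for the same 3 direct contrasts (22.4%, 21.1% and 19.9%). With DESeq2's Wald test it was 2 for HDGF (5.58%), 2 for ZMYND8 (1.54%), 1 for TSPYL2 (4.28%) and for ZNF609 (1.48%), 1 for INTS13 (5.15%) and for HDGF in starved cells (1.55%), and 2, 1 and 1 for the contrasts (9.44%, 8.18% and 7.96%); DESeq2's size factors gave 1 for INTS13 minus HDGF (8.30%). With no filter it was 1 for ZMYND8 (0.374%), ZNF687 (0.547%) and HDGF in starved cells (0.392%), 2 for starvation of INTS13-depleted cells (0.733%), and 2, 2 and 1 for the contrasts (3.43%, 2.66% and 2.45%), all over the 39828 genes then tested. Without the first-set libraries numbered 1 it was 2 for TSPYL2 (15.9%) and 2 for ZNF609 (14.7%). Leaving out 1 library each gave 0 to 1 for INTS13, HDGF, ZNF655, INTS13 minus HDGF and starvation of HDGF-depleted cells, 0 for starvation of INTS13-depleted cells and 0 to 2 for ZEB1. For the fits without 1 library the share of all genes was not counted, so their numbers have no background to be read against. The cause of these moves between settings was not tested. Fits of 1 set use fewer libraries.

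Replicate numbers did not pair the second set (6 of 21 pairs of groups over 0.1, median r 0.0254), where the block is therefore only an alternative, and 1 pair of groups in the third set (r 0.103) cannot settle it. Depth limits SRXN1 (1 to 15 counts) and OSGIN1 (9 to 35 counts).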

Other observations

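Beside GPX4, the wider list held 4 genes known to set how readily membrane lipids are oxidised, ACSL4, LPCAT3, SLC47A1 and AIFM2. In starved controls 3 of them fell and 1 rose, where 8.05% of all genes tested were called lower and 8.77% higher. ACSL4, which loads polyunsaturated fatty acids into lipids, was at 51.5 and 59.1 CPM in HDGF-depleted cells, 88.1 and 81.3 CPM in ZNF655-depleted cells and 91.9 and 89.8 CPM in INTS13-depleted cells, against 119, 122, 124 and 118 CPM in controls. It fell after depletion of HDGF (-1.13 ± 0.10, adjusted p = 5.28e-08), ZNF655 (-0.51 ± 0.10, adjusted p = 0.000740) and INTS13 (-0.41 ± 0.10, adjusted p = 0.00501, lost without either INTS13 library), which share their controls. It fell as well after ZEB1 depletion, at 100.4 and 107 CPM against 166, 152 and 160 CPM in controls (-0.62 ± 0.10, adjusted p = 0.000556, and 0.114 with first-set libraries alone), and in starved controls (-0.31 ± 0.08, adjusted p = 0.00626). GPX4 differed by 0.02 ± 0.19 after HDGF, 0.01 ± 0.19 after ZNF655 and 0.19 ± 0.20 after ZEB1 depletion and by 0.07 ± 0.15 in starved controls. After INTS13 depletion it was at -0.45 ± 0.19 (95% interval -0.84 to -0.06), without overlap and called lower with second-set libraries alone.

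LPCAT3, which remodels the same lipids, fell in starved controls (-0.51 ± 0.08, adjusted p = 3.00e-05). It fell in starved INTS13-depleted cells (-0.60 ± 0.11, adjusted p = 0.00399), a call kept in 0 of 4 fits without 1 library (adjusted p 0.0554 to 0.0751). It fell too in starved HDGF-depleted cells (-0.49 ± 0.11, adjusted p = 0.00883), a call kept in 2 of 4 such fits and lost with no filter on low counts (adjusted p = 0.118). After ZNF655 depletion, where ACSL4 fell, LPCAT3 (0.39 ± 0.09, adjusted p = 0.00402) and the transporter gene SLC47A1 (0.61 ± 0.11, adjusted p = 0.000693) rose. With the ZMYND8 set's controls in place of those used, both calls were lost (adjusted p = 0.803 for LPCAT3 and 0.365 for SLC47A1), and that of LPCAT3 also without ZNF655 library 3 and with no filter (adjusted p = 0.0760). In starved controls SLC47A1 rose (0.34 ± 0.10, adjusted p = 0.0158, kept in 5 of 8 fits without 1 library and lost with no filter at 0.0591), and AIFM2, which regenerates a lipid antioxidant, fell (-0.74 ± 0.14, adjusted p = 0.000345).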
